A study of Mus musculus with 3 samples.

Results

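The chaperone and heat shock genes of mouse were examined in ribosome-bound RNA from the deep cerebellar nuclei. Members were taken by symbol: the Hsp90 genes, the Hsp70 and Hsp110 genes (Hspa and Hsph), the small heat shock genes (Hspb), the mitochondrial chaperonin genes Hspd1 and Hspe1, the J-protein genes (Dnaja, Dnajb and Dnajc) and the subunits of the cytosolic chaperonin TRiC (Cct2 to Cct8 and Tcp1, with the like-named Cct6b and Cct8l1). This rule, which leaves out symbols marked as pseudogenes, found 82 of 32531 gene rows. The RNA came from adult mice of 1 transgenic line, Htr6-TRAP NIDA113 on C57BL/6J, in which ribosomal protein L10a carries EGFP and the line is named for Htr6, a serotonin receptor gene. Homogenised deep nuclei gave polysomes that were captured with anti-EGFP antibodies on magnetic beads (translating ribosome affinity purification, TRAP), and the bound RNA was sequenced. There is 1 group of 3 immunopurified libraries, replicates 1 to 3. No stressed or unpurified sample was analysed here. Levels are therefore abundances within the captured RNA, and constitutive and stress-induced genes were compared with each other within each library. Nothing in the labels ties a library to its own animal or pool, so the spread between them may be technical.

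Chaperones bind unfolded or partly folded proteins and let them fold, refold or be degraded. Hsp70 proteins do so with energy from ATP, J proteins bring them their clients and start the ATP cycle, Hsp110 proteins exchange the nucleotide, and Hsp90 acts later on kinases, receptors and other clients. Several families hold a gene that is expressed at all times and a sister gene that the transcription factor Hsf1 switches on after heat or other protein damage. Neurons are known for a high threshold of this heat shock response, and they use particular J proteins at the synapse.

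Facts of the whole series bear on every level below. The libraries held 7622010 to 8842058 counts assigned to genes, and 0 counts in a library allow a level of up to 0.34 to 0.397 CPM (counts scaled to the library's size), taking 3 counts as the limit and covering counting error only. Htr6 itself had 0, 7 and 0 counts, and Rpl10a 641, 553 and 774. The marker list of glutamatergic deep nuclei neurons summed to 578 ± 137 CPM (SD, n = 3), with Slc17a6 at 302 ± 80.2 CPM, and that of GABAergic and glycinergic neurons to 664 ± 249 CPM. Markers of other cells were counted too, and their sums were 3442 ± 285 CPM for granule cells, 6730 ± 990 CPM for Purkinje cells, 3228 ± 395 CPM for oligodendrocytes and 1877 ± 255 CPM for astrocytes and Bergmann glia. The microglial list, with C1qa, Aif1 and Trem2 at 0 counts, summed to 29.1 ± 8.37 CPM, and the vascular list, with Cldn5 at 0, to 84.7 ± 21.7 CPM. A chaperone level is therefore an average over the cells these libraries hold, in which more cells of a type and more RNA per cell cannot be told apart, and the part of each cell type in it was not tested.

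The family as a whole was well represented. Of the 82 members, 54 (65.9%) had a mean of at least 10 CPM, against 25.1% of all gene rows, and 19 (23.2%) had at least 100 CPM, against 6.35% of all rows. At the other end, 12 members (14.6%) had 0 counts in every library, against 50.6% of all rows. Rows without counts lower the shares of all rows, so a closer background is the genes with counts. A mean of 10 CPM was reached by 54 of the 70 members with counts. It was reached by 8173 of the 14036 genes with at least 10 counts in all. Together the members took 0.909%, 0.917% and 0.849% of all gene counts in replicates 1, 2 and 3. Hsp90ab1, Hspa8 and Hsp90aa1 alone took 41.2 ± 2.37% of the members' counts (SD, n = 3). The median member stood at 4.25 ± 0.21 on the log2(CPM + 1) scale, beside 3.81 ± 0.03 for the 14036 genes with at least 10 counts in all.

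CPM does not correct for transcript length, so levels of different genes are given below as RPKM, which is CPM per kilobase of annotated exon, and their differences on a scale of log2(RPKM + 0.1). The Hsp90 and Hsp110 families stood at the top. The median of the 3 Hsp90 genes was 7.82 ± 0.09 on that scale (SD, n = 3), and that of the 3 Hsp110 genes 6.22 ± 0.2. Class A J proteins (4 genes) had a median of 3.02 ± 0.39, TRiC and its like-named genes (10) 3.27 ± 0.78, class C J proteins (28) 2.1 ± 0.67, Hsp70 genes (11) 1.72 ± 0.81 and class B J proteins (13) 1.4 ± 1.02. The 8 small heat shock genes were lowest at -2.38 ± 0.5, beside a median of 2.32 ± 0.1 for all members. The 2 mitochondrial chaperonin genes had a median of 4.57 ± 0.32. Families spread widely around their medians, and most hold both abundant members and members at or near 0. The Hsp90, Hsp110 and mitochondrial chaperonin genes had no member near 0. Their mean RPKM still ran from 52.6 (Hsp90b1) to 481 (Hsp90ab1), from 21.5 (Hspa4l) to 79.8 (Hsph1) and from 9.0 (Hspe1) to 69.0 (Hspd1).

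**Figure D1:**
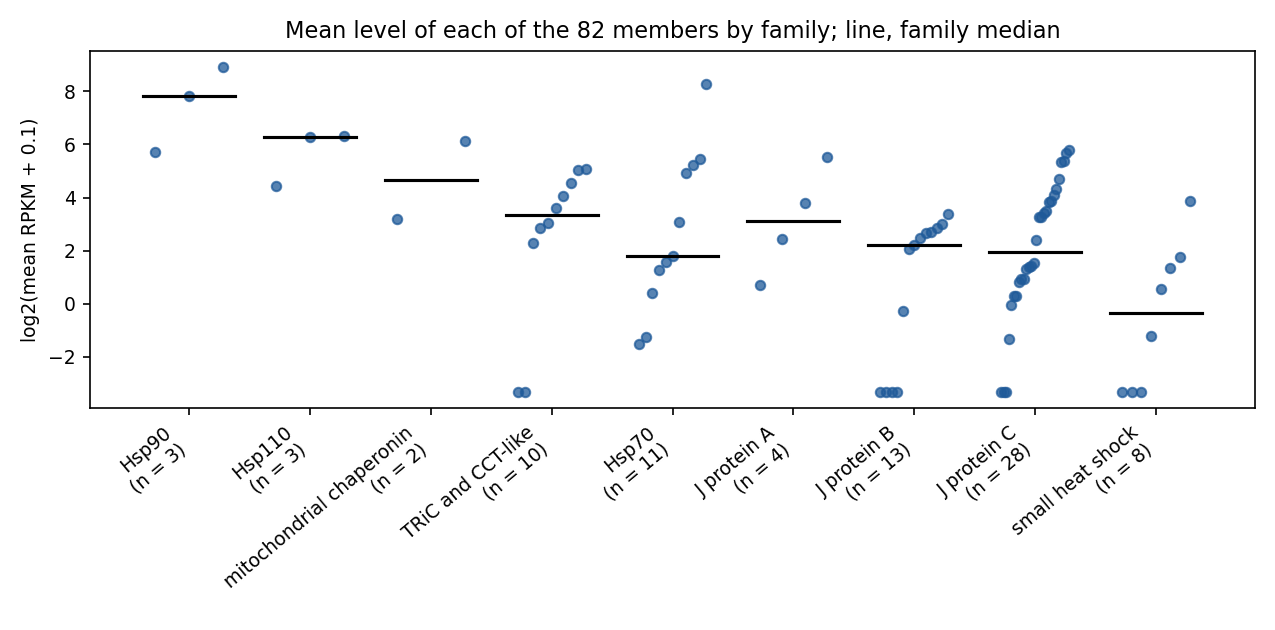
Mean level of each of the 82 members over 3 libraries, as log2(mean RPKM + 0.1) on the vertical axis, by family on the horizontal axis, with n genes per family. Each point is a gene and the black line is the median of the family's points; points at the bottom are the 12 members with 0 counts in every library.

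Constitutive cytosolic members were higher than stress-induced members as lists, but the stress-induced list fell into abundant and scarce genes. The 8 constitutive members (Hsp90ab1, Hspa8, Hspa4, Dnajc5, Dnaja2, Dnajc7, Dnajb6 and Dnajb2) had a median of 5.41, 5.63 and 5.73 on the log2(RPKM + 0.1) scale in replicates 1, 2 and 3. The 7 stress-induced members (Hsp90aa1, Hsph1, Dnajb1, Hspb1, Dnaja4, Hspa1a and Hspa1b) had a median of 1.27, 1.4 and 1.58. The constitutive minus stress-induced difference of medians was 4.17 ± 0.05 (SD, n = 3), and its sign was the same in 3 of 3 libraries. With 7 genes, the stress-induced median is the level of 1 gene in each library. That gene was Hspb1 in replicates 1 and 2 (18 and 23 counts) and Dnaja4 in replicate 3 (81 counts). The SD of 0.05 therefore rests on low counts and does not measure how reproducible the lists are. The ranges of the lists overlapped. A mean of 10 CPM was reached by all 8 constitutive and by 3 stress-induced members, and one of 100 CPM by 5 constitutive and 2 stress-induced members. Among the stress-induced members, 4 had a mean RPKM under that of the lowest constitutive member, and Hsp90aa1 and Hsph1 were above most of the constitutive ones.

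The counting of near-identical genes limits this list comparison. Reads that align to several places were not counted to genes, and 11 members have more than 50% of their transcript at 95% identity or more, over at least 75 bases, to another annotated gene. Among these are Hspa8 (87.9% of the transcript), Hsp90aa1 (68.7%), Hspa1a (75.7%), Hspa1b (78.5%), Hspb1 (72.6%) and Dnaja4 (52.6%, with its opposite-strand neighbour Wdr61). Without members over that limit, the stress-induced list keeps Hsph1 and Dnajb1, and the difference of medians was 0.997 ± 0.072. The shared bases of Dnaja4 are exon overlap with Wdr61 at the same place in the genome (1581 bases), not a second copy. Dropping Dnaja4 therefore goes beyond reads that align to several places, and the difference with Dnaja4 kept was not computed. Hspa1l and Dnajb8, which are among the 11 but in neither list, likewise overlap exons of an opposite-strand gene (1778 and 525 bases). The 11 are therefore not all members with a second copy. A set of 5 pairs of sister or like genes was compared next; with 3 libraries the smallest p that the exact permutation test by sign flips (two-sided) can reach is 0.25, or 0.417 after Benjamini-Hochberg adjustment over the 5 pairs, so sizes are read against the SD.

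**Figure D2:**
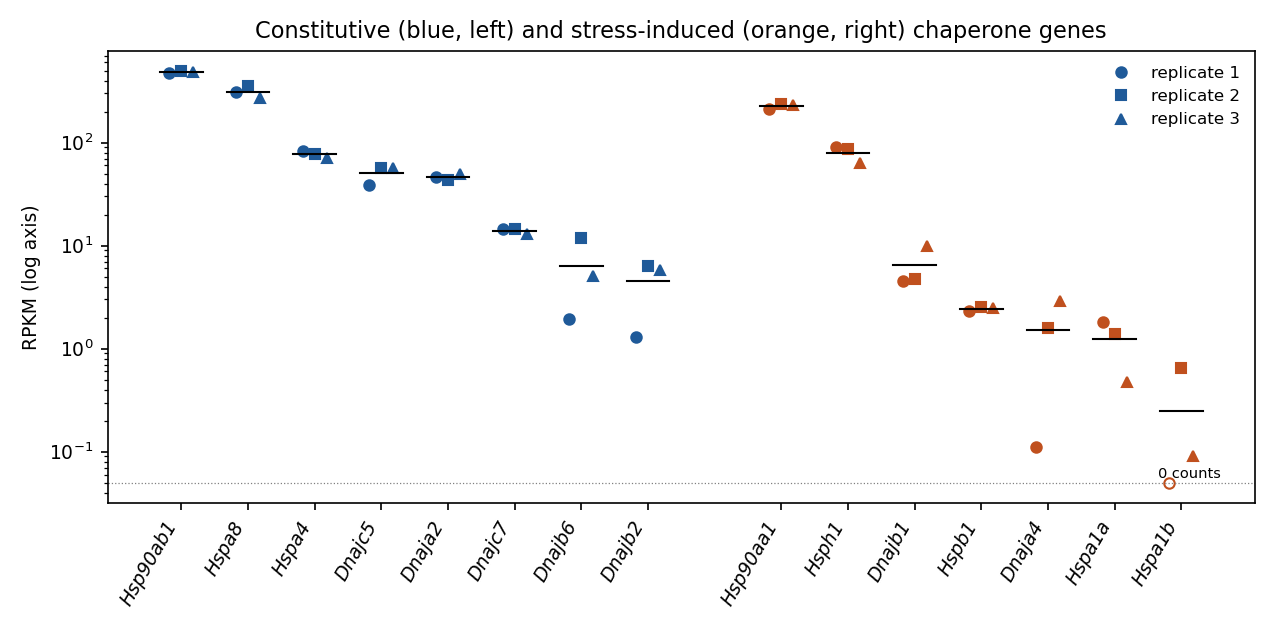
Level of the 8 constitutive members (blue, left) and the 7 stress-induced members (orange, right) in RPKM on a log axis, genes ordered by mean within each list. Markers are the 3 libraries, the black line is their mean, and the open marker on the dotted line is a library with 0 counts; Hsp90aa1 (226 RPKM) and Hsph1 (79.8 RPKM) stand at the level of constitutive members, and Hspa1a and Hspa1b lie at the bottom.

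Both cytosolic Hsp90 genes were abundant. Hsp90ab1, the constitutive Hsp90 beta gene (mm10 chromosome 17, minus strand, 45567775 to 45573271), had 470.4, 492 and 482 RPKM in replicates 1, 2 and 3 and was the highest member. Hsp90aa1, the stress-inducible Hsp90 alpha gene (chromosome 12, minus strand, 110690605 to 110702728), had 210.4, 238 and 229 RPKM. The lowest library of Hsp90ab1 was above the highest of Hsp90aa1. The difference of Hsp90ab1 minus Hsp90aa1 was 1.09 ± 0.06 on the log2(RPKM + 0.1) scale (2.13-fold, SD over n = 3), with this sign in 3 of 3 libraries (p = 0.25, exact sign-flip permutation). Near-identical sequence touches the Hsp90aa1 side alone, at 68.7% of its transcript against 0% for Hsp90ab1, and the part of lost reads in this difference was not tested. Among all genes, Hsp90ab1 ranked 63rd by mean CPM (1443 ± 31.9 CPM) and Hsp90aa1 137th (888 ± 55.9 CPM).

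The constitutive and inducible Hsp70 genes lay at opposite ends of the family. Hspa8, which encodes the constitutive Hsc70 that also strips clathrin from synaptic vesicles (chromosome 9, plus strand, 40800984 to 40810087), had 307, 354 and 272 RPKM, or 9983, 13426 and 9101 counts. Hspa1a, an inducible Hsp70 gene (chromosome 17, minus strand, 34969190 to 34972156), had 41, 36 and 11 counts. Hspa1b, its near-identical neighbour (positions 34956436 to 34959238 on the same strand), had 0, 16 and 2 counts. The inducible genes together had 1.83, 2.02 and 0.567 RPKM, so that every library of Hspa8 was far above every library of the pair. The difference of Hspa8 minus Hspa1a+Hspa1b was 7.79 ± 0.76 on the log2(RPKM + 0.1) scale (SD, n = 3), with this sign in 3 of 3 libraries (p = 0.25, exact sign-flip permutation). Near-identical sequence touches both sides of this difference, and its size was not separated from lost reads.

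The promoters of the inducible pair are shown because they carry the same heat shock element, the site that Hsf1 binds, above genes with almost no counts, and the promoter of the constitutive Hsp110 gene Hspa4 is shown for comparison. Each is the 250 bases before the RefSeq start (GRCm38.p6, which is mm10), written 5′ to 3′ on the gene's strand, and capitals mark matches to GAANNTTC. Hspa1a and Hspa1b lie on the minus strand at chr17:34972157-34972406 and chr17:34959239-34959488 and are identical at 247 of 250 positions. Hspa4 lies on the minus strand at chr11:53300480-53300729 and has no match.
Hspa1a: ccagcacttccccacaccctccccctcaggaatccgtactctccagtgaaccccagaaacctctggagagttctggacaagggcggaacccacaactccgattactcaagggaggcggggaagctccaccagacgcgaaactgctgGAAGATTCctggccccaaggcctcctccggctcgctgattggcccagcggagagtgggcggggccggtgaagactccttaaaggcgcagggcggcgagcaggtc
Hspa1b: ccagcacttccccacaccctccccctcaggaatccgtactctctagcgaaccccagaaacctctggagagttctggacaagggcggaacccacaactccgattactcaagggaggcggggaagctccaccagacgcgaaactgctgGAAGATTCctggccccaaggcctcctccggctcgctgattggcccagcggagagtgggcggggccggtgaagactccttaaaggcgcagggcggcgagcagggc
Hspa4: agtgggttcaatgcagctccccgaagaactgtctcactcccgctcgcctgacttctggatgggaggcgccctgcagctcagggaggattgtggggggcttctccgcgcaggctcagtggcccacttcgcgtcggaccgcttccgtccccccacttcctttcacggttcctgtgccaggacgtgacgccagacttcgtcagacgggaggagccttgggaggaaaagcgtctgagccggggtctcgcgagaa
The motif GAANNTTC reads the same on both strands. Of 67 members with a RefSeq promoter available here (250 bases before to 50 after each start), 16 hold it. Among them are 5 of 6 stress-induced members in that table (Hspa1a, Hspa1b, Hspb1, Dnaja4 and Hsph1) and 1 of 5 constitutive members (Dnajb6). No promoter was available here for Hspa8, Hsp90ab1 and Hsp90aa1, so these counts leave them out. GAANNTTC is a short motif, and 9.04% of all 27025 genes in the table hold it in at least 1 promoter (7.86% of 32851 promoters).

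A longer element, which is GAANNTTC followed by any 2 bases and GAA, was searched on both strands. It was found in 4 of the 67 members, Hsph1, Dnajb6, Hspd1 and Hspe1, and in 0.662% of all genes in the table (0.603% of promoters). It holds the shorter motif within it. In Hsph1 the match begins at base 16 of the transcript from the more downstream of its RefSeq starts, and the 30 bases around it (minus strand, chr5:149636279-149636308) are shown with the match in capitals. In Dnajb6 (plus strand, chr5:29735648-29735897) it lies 46 to 34 bases before the start.
Hsph1: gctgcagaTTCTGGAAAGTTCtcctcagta
Dnajb6: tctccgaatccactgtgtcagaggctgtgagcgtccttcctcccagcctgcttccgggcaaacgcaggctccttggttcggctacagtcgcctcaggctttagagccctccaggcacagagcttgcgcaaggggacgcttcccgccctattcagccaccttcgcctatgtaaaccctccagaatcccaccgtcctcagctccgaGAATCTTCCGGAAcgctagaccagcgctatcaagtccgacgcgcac
These genes, a stress-induced, a constitutive and a mitochondrial pair by the lists used here, did not share a level. Hsph1 stood at 79.8 RPKM, Hspd1 at 69.0, Hspe1 at 9.0 and Dnajb6 at 6.28 RPKM.

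The Hsp110 genes did not show the difference seen for Hsp70. Hsph1, the heat-inducible Hsp110 gene (chromosome 5, minus strand, 149614287 to 149636376), had 90.3, 85.8 and 63.4 RPKM. Hspa4, its constitutive sister (chromosome 11, minus strand, 53259814 to 53300457), had 82.6, 78.2 and 71.1 RPKM. Their libraries overlapped, and the difference of Hspa4 minus Hsph1 was -0.03 ± 0.17 on the log2(RPKM + 0.1) scale (SD, n = 3), smaller than its SD and positive in 1 of 3 libraries (p = 1, exact sign-flip permutation). With the longest transcript in place of all exons as the length it was -0.38 ± 0.17, with Hspa4 lower in each library. Hspa4l, the third gene of the family, had 23.6, 23.0 and 17.9 RPKM, below both in every library.

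The J-protein pairs differed in size and in reproducibility. Dnaja2, a constitutive class A J protein that works with Hsc70, had 46.4, 42.9 and 49.9 RPKM. Dnaja4, its heat-inducible relative, had 3, 50 and 81 counts, or 0.111, 1.58 and 2.9 RPKM, with 44.1% of its exon bases under exons of the opposite-strand gene Wdr61. Each library of Dnaja2 was above each of Dnaja4, and the difference of Dnaja2 minus Dnaja4 was 5.51 ± 2 on the log2(RPKM + 0.1) scale (SD, n = 3; the same sign in every library, p = 0.25 by exact sign-flip permutation). Dnajb6, a constitutive class B protein known for holding back aggregation of polyglutamine proteins, had 1.92, 11.9 and 5.08 RPKM. Dnajb1, the main heat-inducible class B protein (Hsp40), had 4.55, 4.75 and 9.97 RPKM. These overlapped, and the difference of Dnajb6 minus Dnajb1, -0.29 ± 1.38, was within its SD and positive in 1 of 3 libraries, in replicate 2 (exact sign-flip permutation p = 1). It was 0.65 ± 1.39 with the longest transcript as the length. Of the Dnajb6 transcript, 47.3% is near-identical to other genes, and of that of Dnajb1 0%.

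Of the remaining Hsp70 genes, Hspa9, Hspa5 and Hspa12a had a mean of at least 100 CPM. Hspa9, the mitochondrial Hsp70, had 466, 2261 and 1277 counts, or 14.3, 59.5 and 38.02 RPKM, lowest in replicate 1. Hspa5, the Hsp70 of the endoplasmic reticulum (BiP), had 44.7, 22.5 and 23.4 RPKM, highest in replicate 1. Hspa12a, a distant relative of Hsp70 with high expression in brain, had 49.1, 44.3 and 38.5 RPKM and varied little. Its paralog Hspa12b, known from endothelial cells, had 0, 1 and 27 counts, in libraries whose vascular marker sums were 60.9, 103 and 89.8 CPM. Hspa2, best known from testis, was among the least reproducible members, with 6, 484 and 87 counts. Hspa1l, known from testis too, had 0, 126 and 23 counts, and 71.9% of its exon bases lie under an opposite-strand gene. Hspa13, a microsomal Hsp70, stood at 3.39 ± 1.62 RPKM and Hspa14, a ribosome-associated one, at 2.88 ± 1.79 RPKM (SD, n = 3).

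Dnajc6 and Dnajc5, J proteins of clathrin uncoating and of synaptic vesicles, had the highest mean RPKM of the 45 J-protein genes. Dnajc6, auxilin, which recruits Hsc70 to clathrin-coated vesicles in neurons (chromosome 4, plus strand, 101496648 to 101642799), had 71.6, 39.3 and 55.8 RPKM. Dnajc5, the cysteine string protein of synaptic vesicles, which with Hsc70 keeps SNAP-25 folded (chromosome 2, plus strand, 181520485 to 181555133), had 39.0, 56.8 and 56.2 RPKM. The difference between these genes changed sign between libraries, with Dnajc6 higher in replicate 1, lower in replicate 2 and about level in replicate 3. Dnajc13, which acts with Hsc70 on endosomes, had 10.6, 9.22 and 8.62 RPKM, and all 3 of these genes were above 100 CPM. Gak, the auxilin expressed in all tissues, stood at 21.7 RPKM on the mean and was not a member by the rule.

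Other class C genes ranged over the whole scale, and most of their products have roles outside general folding. Dnajc18, a J protein of the endoplasmic reticulum membrane, had 51.4, 51.9 and 20.7 RPKM and Dnajc27, which carries a Rab-like GTPase domain, 34.6, 20.3 and 22.1 RPKM. Dnajc24, needed to make diphthamide on elongation factor 2, had 1141, 88 and 45 counts. Its mean of 40.6 RPKM, the fourth highest of class C, rested on replicate 1 and was 60.4 RPKM in SD. Dnajc21 and Dnajc2, which act on ribosomes, stood at 19.8 ± 8.72 and 10.7 ± 9.9 RPKM, Dnajc8, a splicing-associated protein, at 16.9 ± 7.28 RPKM and Dnajc9, a histone chaperone, at 14.6 ± 16.6 RPKM (SD, n = 3). Dnajc7, which binds both Hsp70 and Hsp90, stood at 14.0 ± 0.989 RPKM and was among the most even members. At the low end with counts were Dnajc25 (0, 23 and 11 counts), Dnajc19 of the mitochondrial inner membrane (17, 16 and 51 counts) and Dnajc11 (183, 24 and 69 counts). Dnajc12, Dnajc14, Dnajc16 and Dnajc17 had means of 1.12 to 2.8 RPKM, and Dnajc1 of the endoplasmic reticulum had 5.15 ± 4.32 RPKM.

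Class B genes were lower than class A and class C genes at the top of their range. No class B gene reached a mean of 100 CPM, and the highest per length was Dnajb11 at 10.3 ± 6.57 RPKM (SD, n = 3). Dnajb9 stood at 7.84 ± 2.26, Dnajb4 at 7.09 ± 2.15 and Dnajb5 at 5.51 ± 5.33 RPKM. Dnajb2, a J protein enriched in neurons whose loss causes motor neuropathy in people, had 42, 240 and 192 counts, or 1.31, 6.41 and 5.8 RPKM. Dnajb12 and Dnajb14, which sit in the membrane of the endoplasmic reticulum, had 4.07 ± 4.07 and 0.73 ± 0.593 RPKM. In class A, Dnaja1, a partner of Hsc70 that heat can also raise, had 16.4, 15.5 and 9.43 RPKM and Dnaja3 of mitochondria 6.36, 2.23 and 7.54 RPKM. The summed class B level was 132, 307 and 315 CPM in replicates 1, 2 and 3, while the class C sum was 2165, 1614 and 1463 CPM, so replicate 1 was lowest in the first sum and highest in the second.

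Small heat shock genes, whose products hold unfolded proteins without ATP, were scarce with 1 exception. Hspb6 (Hsp20) had 375, 324 and 110 counts, or 21.6, 15.99 and 6.14 RPKM, and was the 1 of 8 at 10 CPM or more. Hspb1 (Hsp25), a stress-induced gene on the plus strand of chromosome 5 at positions 135887919 to 135889563, had 18, 23 and 20 counts, or 2.44 ± 0.117 RPKM (SD, n = 3). Hspb8 had 0, 62 and 7 counts and Hspb3 59, 0 and 0, each with a count of at least 50 in 1 library and 0 in another. With Hspa1l, 3 members (3.66%) had this pattern, against 3.46% of all gene rows. Hspb11, also known as the intraflagellar transport protein IFT25, had 1, 8 and 8 counts. Hspb2, Hspb7 and Hspb9 had none, and Hspb2 and Hspb7 are known from muscle and Hspb9 from testis. Cryab, the small heat shock gene of oligodendrocytes and astrocytes that the rule does not take in, had 451, 602 and 299 counts, or 37.5 RPKM on the mean, with oligodendrocyte marker sums of 3133, 3662 and 2890 CPM in the same libraries.

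The 12 members without a count were Cct6b, Cct8l1, Dnajb3, Dnajb7, Dnajb8, Dnajb13, Dnajc5b, Dnajc5g, Dnajc22, Hspb2, Hspb7 and Hspb9. Cct6b, Dnajb3, Dnajb8, Dnajb13, Dnajc5b, Dnajc5g and Hspb9 are known from testis. They are also short, with 726 to 2769 exon bases and a median of 1523, against a median of 4129 for the 70 members with counts. The part of length in these zeros was not tested, and a further 7 members had counts but 0 in 1 or 2 libraries.

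TRiC folds actin and tubulin in a pair of stacked rings of 8 different subunits, with each subunit once in each ring. All 8 subunit genes had at least 10 CPM and 1, Cct6a, at least 100 CPM. Cct2 had 21.95, 42.3 and 36.0 RPKM, Cct6a 24.2, 42.3 and 31.9, and Cct5 28.2, 12.1 and 29.7. Cct8 stood at 16.4 ± 5.78, Tcp1 at 12.1 ± 7.23, Cct7 at 8.13 ± 6.59, Cct3 at 7.14 ± 4.39 and Cct4 at 4.8 ± 2.02 RPKM (SD, n = 3). The highest mean was 6.97 times the lowest, or 5.97 times with the longest transcript as the length. The order of the subunits was not kept between libraries: Cct5 was highest in replicate 1 and Cct2 in replicates 2 and 3, and the lowest was Cct3, Cct7 and Cct4 in replicates 1, 2 and 3. The summed TRiC level was 479, 425 and 598 CPM, so single subunits varied more than their sum.

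The mitochondrial chaperonin genes Hspd1 (Hsp60) and Hspe1 (Hsp10), whose products form 1 folding chamber, differed in level. Hspd1 had 86.0, 64.9 and 56.0 RPKM, and Hspe1 had 5.03, 14.3 and 7.66 RPKM, so each library of Hspd1 was above each of Hspe1. Hspe1 is the shorter, with 1474 exon bases against 2642, and 81.0% of its transcript and 71.1% of that of Hspd1 are near-identical to other annotated genes. The genes lie head to head on chromosome 1, with the nearest RefSeq starts 216 bases apart. Their shared promoter is shown from the Hspe1 side (plus strand, chr1:55087898-55088147), with the overlapping matches to the long heat shock element in capitals; the same bases lie in the promoter of Hspd1 on the other strand.
Hspe1: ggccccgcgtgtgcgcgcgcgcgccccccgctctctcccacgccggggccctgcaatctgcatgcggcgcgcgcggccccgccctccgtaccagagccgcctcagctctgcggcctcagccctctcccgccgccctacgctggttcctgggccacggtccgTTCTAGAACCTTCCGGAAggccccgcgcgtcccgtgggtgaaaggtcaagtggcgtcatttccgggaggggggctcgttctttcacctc
Of the 10 mitochondrial members, 6 had at least 10 CPM, and the list median was 1.49 ± 0.24 on the log2(RPKM + 0.1) scale (SD, n = 3). Dnajc4, Dnajc15, Dnajc28 and Dnajc30 had means of 1.82 to 2.55 RPKM.

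Members induced by the unfolded protein response of the endoplasmic reticulum were all detected. All 7 had at least 10 CPM in the mean, 2 had at least 100 CPM, and their median was 3.48 ± 0.47 on the log2(RPKM + 0.1) scale (SD, n = 3). Hsp90b1 (Grp94) had 51.3, 48.2 and 58.5 RPKM. It was above Hspa5 in every library, and Dnajc3, Dnajb11 and Dnajc10 followed at 11.2 ± 4.16, 10.3 ± 6.57 and 9.61 ± 6.36 RPKM. Hspa5, Dnajc3 and Dnajc10 were highest in replicate 1, Dnajb11, Dnajb9 and Hspa13 were lowest there, and the summed level of the list was 606, 484 and 476 CPM in replicates 1, 2 and 3.

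The promoters of 3 of these genes hold the endoplasmic reticulum stress response element, CCAAT and CCACG with any 9 bases between them, to which Atf6 binds together with NF-Y. They are shown since they are the 3 members of 67 with this motif, which was searched on both strands and is held by 0.137% of all genes in the table (0.119% of promoters). Capitals mark the matches. Hspa5 (plus strand, chr2:34771840-34772089) has 1, 65 to 47 bases before the start. Hsp90b1 (minus strand, chr10:86705445-86705694) has 2, of which the nearer to the start is on the other strand, and Dnajc3 (plus strand, chr14:118937682-118937931) has 1.
Hspa5: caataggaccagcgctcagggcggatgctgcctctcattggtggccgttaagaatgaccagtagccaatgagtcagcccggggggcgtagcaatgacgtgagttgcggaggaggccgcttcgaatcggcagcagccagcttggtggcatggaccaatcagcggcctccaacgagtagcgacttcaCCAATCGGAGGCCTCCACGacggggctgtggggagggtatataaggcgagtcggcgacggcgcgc
Hsp90b1: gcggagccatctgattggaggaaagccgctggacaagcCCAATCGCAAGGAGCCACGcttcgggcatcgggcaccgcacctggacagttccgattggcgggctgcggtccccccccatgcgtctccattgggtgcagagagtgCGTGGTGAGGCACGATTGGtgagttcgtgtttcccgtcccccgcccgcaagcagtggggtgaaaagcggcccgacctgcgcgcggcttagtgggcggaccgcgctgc
Dnajc3: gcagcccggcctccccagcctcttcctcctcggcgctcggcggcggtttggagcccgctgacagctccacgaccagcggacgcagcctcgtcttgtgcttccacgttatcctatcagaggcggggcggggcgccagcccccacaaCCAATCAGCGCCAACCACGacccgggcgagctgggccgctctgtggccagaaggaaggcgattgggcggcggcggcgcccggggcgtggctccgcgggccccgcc
Their levels were 30.2 ± 12.6, 52.6 ± 5.28 and 11.2 ± 4.16 RPKM (SD, n = 3).

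**Figure D3:**
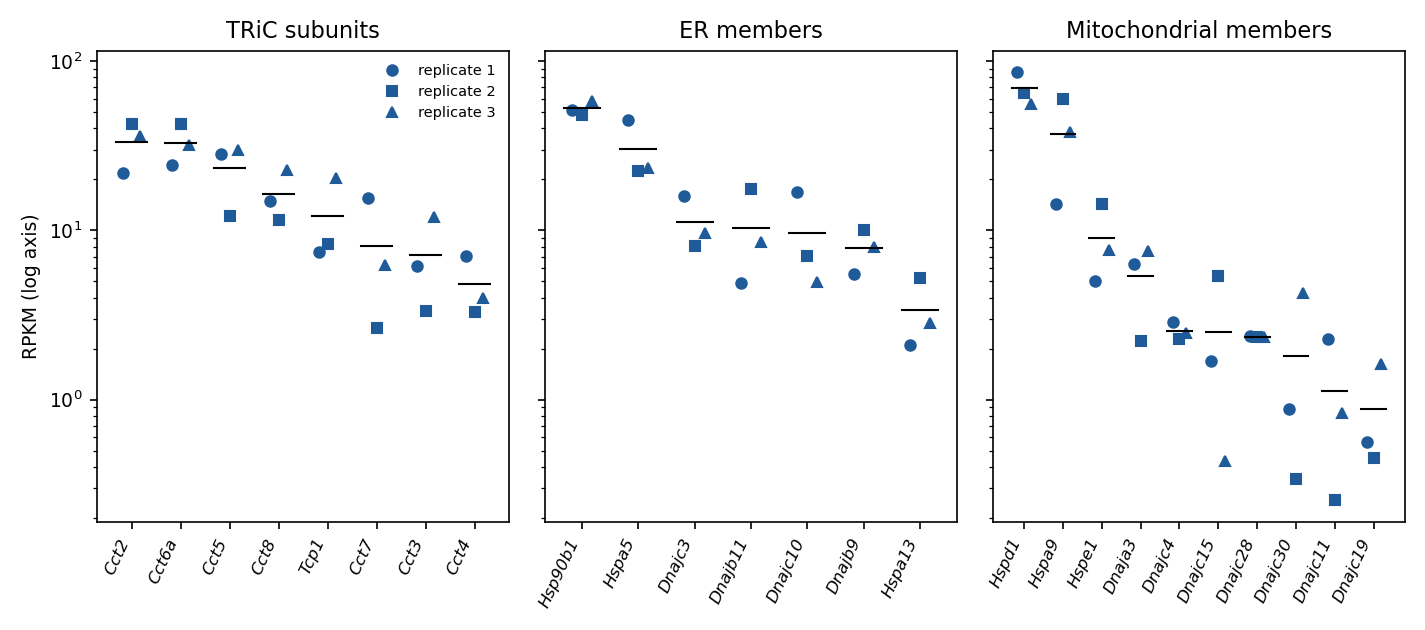
Level in RPKM, on a shared log axis, of the TRiC subunits, of the members induced by the unfolded protein response of the endoplasmic reticulum (ER) and of mitochondrial members, ordered by mean within each panel. Markers are the 3 libraries and the black line is their mean; TRiC subunits change order between libraries, and Hspd1 lies far above Hspe1.

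Partners of the chaperones were set beside the members. The heat shock factor genes Hsf1 and Hsf2 had 33.7 ± 9.47 and 34.5 ± 10.2 CPM (SD, n = 3). Of 24 cytosolic cochaperone genes, 17 had at least 10 CPM and 2 at least 100 CPM, Stip1 (Hop, which links Hsp70 to Hsp90; 187 ± 27.4 CPM) and Gak (139.7 ± 43.8 CPM). Bag3, an Hsf1 target that steers Hsp70 clients to autophagy, had 648, 315 and 436 counts, while the ubiquitin ligase gene Stub1 had 0, 10 and 8. Of 13 genes of folding and stress signalling in the endoplasmic reticulum, 9 had at least 10 CPM and 5 at least 100 CPM. These were the disulphide isomerase Pdia3 (226 ± 41.0 CPM), Atf6 (168 ± 38.3 CPM), the lectin chaperones Canx (157 ± 49.6 CPM) and Calr (133 ± 25.7 CPM), and Xbp1, which had 1859, 576 and 320 counts. Xbp1, Pdia3 and Canx were highest in replicate 1, and Calr and Atf6 in replicate 3. Of 6 mitochondrial partners, 5 had at least 10 CPM, led by the mitochondrial Hsp90 gene Trap1 (40.1 ± 19.6 CPM).

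Immediate early genes, which tissue handling and activity induce within minutes, were mostly low beside the constitutive chaperones. Of 16 genes, 6 had at least 10 CPM in the mean. Dusp1, with 1965, 1929 and 1578 counts, and Egr1, with 859, 533 and 483 counts, were the highest. Junb had 0 counts in every library and Fos had 0, 0 and 6. The summed level of the list was 461, 379 and 366 CPM, and that of the 7 stress-induced chaperone genes was 1506, 1589 and 1409 CPM, of which Hsp90aa1 and Hsph1 made up nearly the whole. Whether the handling of tissue moved either list was not tested, as no other handling was sampled.

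Most members varied between libraries by more than counting error, as did most genes. Of 65 members that reached 10 counts in at least 2 libraries, 61 (93.8%) passed a Poisson chi-square test (Benjamini-Hochberg adjusted p under 0.05 over all 11168 genes tested), against 96.5% of all genes. The 4 that did not pass were Dnajc28 (64, 74 and 65 counts), Hspb1, Dnajc4 (27, 25 and 24 counts) and Dnajc7 (531, 626 and 486 counts). By edgeR's quasi-likelihood dispersion, which asks whether a gene varied more than genes of its level, 0 members and 0 genes in all (0.0%) passed an adjusted p under 0.05. By the same edgeR test at an unadjusted p under 0.05 there were 2 members (3.08% of those tested), and 4.27% of all genes. These were Dnajc24 and Hspa2, each with an adjusted p of 0.956 in the edgeR fit. DESeq2 marked 0 members and 15 genes in all as dispersion outliers.

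Evenness differed among the abundant members. The highest library was under 1.5 times the lowest for 11 of 19 members with at least 100 CPM (57.9%), against 39.2% of all genes at that level. For the other 8 it was 1.54 times the lowest (Hspd1) to 4.16 times (Hspa9). With Dnajc7, 12 members at 10 CPM or more were under 1.5-fold (22.2%), against 16.9% of all such genes. They were Hsp90ab1, Hsp90aa1, Hsp90b1, Hspa8, Hspa4, Hspa4l, Hsph1, Hspa12a, Dnaja2, Dnajc5, Dnajc13 and Dnajc7. Hsp90ab1 had 1411, 1474 and 1445 CPM and the lowest SD of log2(CPM + 1) among members at 10 CPM or more, 0.03, followed by Hsp90aa1 (0.09) and Dnajc7 (0.1). Another 7 members at 10 CPM or more (13.0%) differed more than 10-fold between libraries, against 13.9% of all such genes that did so or had 0 in a library. These were Dnajb14, Dnajc1, Dnajc9, Dnajc14, Dnajc15, Dnajc24 and Hspa2, with the highest SDs for Hspa2 (2.49), Dnajc24 (2.42) and Dnajc14 (2.27).

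The uneven members did not share a library. Dnajc24, Dnajc9 and Dnajc1 were highest in replicate 1, and Hspa2, Dnajc14, Dnajc15 and Dnajb14 in replicate 2. Of the 54 members at 10 CPM or more, 21 were highest in replicate 1, 21 in replicate 2 and 12 in replicate 3. The median SD of log2(CPM + 1) was 0.7 for these 54 members and 0.69 for the 8173 genes at that level, and it was 0.28 for the 19 members and 0.37 for the 2067 genes at 100 CPM or more.

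**Figure D4:**
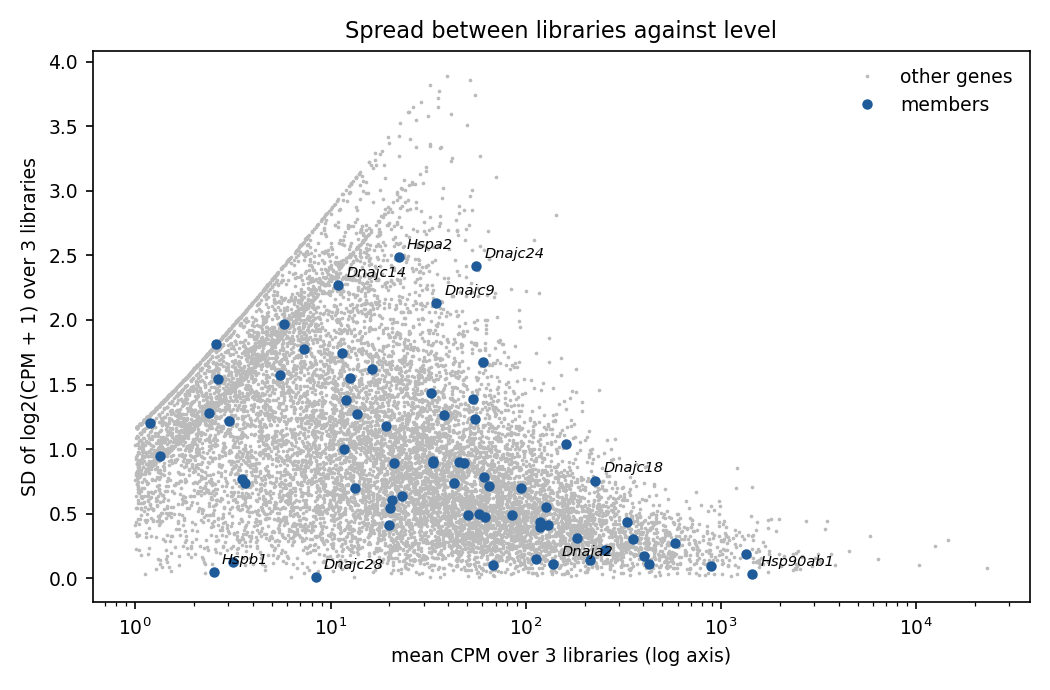
Standard deviation of log2(CPM + 1) over 3 libraries against mean CPM on a log axis, for genes with a mean of at least 1 CPM; members are blue and other genes grey, and some members are named. Hsp90ab1 lies at the bottom right, at 1443 CPM with an SD of 0.03, while Hspa2 and Dnajc24 lie among the most variable genes of their level.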

How the data were processed

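Ribosome-bound RNA of 3 immunopurified libraries was sequenced. Per gene symbol the authors deposited unscaled read counts, and STAR 2.0.0e, HTSeq and the build mm10 are named in the submitters' processing notes. The annotation and strand setting were not given in the sources used here, and reads of overlapping opposite-strand genes cannot be told apart. HTSeq summary rows were left out. Of reads assigned to a gene, to no feature or as ambiguous, 44.1% to 50.2% had no feature. Alignments that were not unique are outside that share and numbered 5263183, 4434540 and 3710157 in replicates 1, 2 and 3.

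Counts were scaled to CPM with TMM library sizes (edgeR 4.0.16, R 4.3.3) and to RPKM with exon lengths of GENCODE release M21 (same build, all 82 members matched, 23116 rows in all). Coordinates are from that annotation, promoters from RefSeq (67 members matched). Near-identical sequence was found with BLAST against GENCODE transcripts. Differences were computed within a library and tested by sign-flip permutation. Spread was tested over 11168 genes by a Poisson chi-square and by glmQLFit (intercept only) against an F distribution. On simulated data both were required to call few unchanged genes, and only the Poisson test was required to find planted changes. That check therefore does not establish the power of the quasi-likelihood test with 3 libraries. DESeq2 1.42.0, other lengths, pseudocounts, filters and left-out libraries were alternatives. Members, lists and pairs were chosen with earlier results of these data known. Named genes are those of the lists and pairs, the TRiC subunits, the highest and lowest of each family, the most and least variable, and those without counts; others complete a group.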

Additional observations from a re-analysis of the deposited data

How the results depend on the processing

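The sign-flip test over 3 libraries cannot go below 0.25, so no setting could bring a pair past 0.05 by that test. No comparison between groups, paired or not, was possible because there is 1 group. The differences tested are between genes within a library. The signs of Hspa8 minus Hspa1a+Hspa1b (7.03 to 8.42), Hsp90ab1 minus Hsp90aa1 (0.7 to 1.12) and Dnaja2 minus Dnaja4 (4.37 to 6.23) were the same under all 7 alternatives run. Hspa4 minus Hsph1 ran from -0.13 to 0.02 when each library was left out (0.016 without replicate 1 and 0.019 without replicate 2). Dnajb6 minus Dnajb1 was 0.65 with the longest transcript as the length, 0.62 as CPM, and -1.08 to 0.17 when each library was left out.

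The constitutive minus stress-induced difference of list medians was 3.78 with a pseudocount of 1, 4.05 with the longest transcript, 4.98 as CPM, 3.01 for list means, 4.37 without Hsp90aa1, 2.95 with a stress-induced list widened to 12 genes, 3.58 for members with at least 10 counts in 2 libraries, and 4.15 to 4.19 when each library was left out. An alternative chosen after seeing the data, with members up to 50% near-identical to another gene, gave 0.997, since it leaves Hsph1 and Dnajb1 in the stress-induced list. It drops Dnaja4 for exon overlap with Wdr61 rather than for a second copy. Members past counting error were 65 of 70 tested with no filter (14257 of 16071 genes) and 42 of 44 with at least 50 counts in every library (6327 of 6547 genes). They were 49 of 62, 49 of 58 and 42 of 57 without replicates 1, 2 and 3, beside 7977 of 9912, 7902 of 9658 and 7877 of 9582 genes. By edgeR's quasi-likelihood dispersion 0 members passed in each of these settings, and 1 to 20 of all genes did, so 0 members is near the background. Members at 10 CPM numbered 40 when required in every library, a rule for which the share of all gene rows was not computed. Low counts limit Hspa1a, Hspa1b, Dnaja4 and the small heat shock genes.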
